A study of Homo sapiens with 24 samples.

Results

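Expression of 10 keratin genes, KRT7, KRT8, KRT10, KRT17, KRT18, KRT19, KRT34, KRT80, KRT81 and KRT86, was quantified in RNA-seq libraries of the OS-LM1 and 786-M1A cell lines after PAX8 depletion. They were chosen by gene symbol among the 26475 genes for which expected counts were deposited, with earlier results of these data known. Every member was listed in all 24 libraries, in some of them without a count. Both lines are metastatic derivatives of human clear cell renal cell carcinoma (ccRCC) lines, 786-M1A of 786-O and OS-LM1 of OS-RC2. Both are VHL-mutant, carry a luciferase transgene and were grown in RPMI with serum. Each line has 4 libraries with shPAX8-1, 4 with shPAX8-2 and 4 with sgNTC18. The first 2 are RNAi constructs against PAX8, a renal lineage transcription factor, and the last is, by its name, a non-targeting CRISPR guide. No RNAi control construct is among the 6 groups, so the type of construct and PAX8 depletion cannot be told apart in any comparison with sgNTC18. No source states that the 4 libraries of a group came from separate cultures, and p-values then measure only the spread between these libraries.

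Keratins are the intermediate filament proteins of epithelial cells. A type I (acidic) and a type II (basic) chain join as an obligate heterodimer, so a filament needs both types, and a chain left without a partner is usually degraded. KRT8 (type II) and KRT18 (type I) are the pair of simple epithelia such as the renal tubule, KRT19 (type I) and KRT7 (type II) are typical of ducts, and keratin staining is used in the diagnosis of renal tumours. KRT10 belongs to differentiating epidermis, KRT17 to basal and injured epithelium, and KRT34, KRT81 and KRT86 to the hair shaft.

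The constructs are defined by 22-base guide strands, shown here because the comparisons turn on them. Each is written 5′ to 3′ with bases 2 to 8, the seed, in capitals.
shPAX8-1: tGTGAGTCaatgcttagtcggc
shPAX8-2: tAGAGTTGtgttaataatggag
The full complement of shPAX8-1 was present in 10 of 14 annotated PAX8 transcripts and that of shPAX8-2 in 7 of 14, and neither was found in the longest transcript of any other gene searched. A complement of the seed was present in the longest transcript of 14.0% of 23161 genes for shPAX8-1 and of 18.7% for shPAX8-2. None of the 10 keratin transcripts held either seed complement.

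PAX8 was at 341 ± 44.7 CPM (SD, n = 4) with sgNTC18, 18.7 ± 4.31 CPM with shPAX8-1 and 42.4 ± 2.36 CPM with shPAX8-2 in 786-M1A cells. CPM is a gene's share of the counts of a library, here scaled by edgeR's TMM method over the 24 libraries. The OS-LM1 levels were 259.9 ± 14.5, 78.2 ± 13.1 and 79.2 ± 13.7 CPM, and no shPAX8 library reached a sgNTC18 library in either line. Library totals were between 11634419 and 52059375 expected counts. Of 9 renal and ccRCC markers, PAX8 among them, between 7 and 9 exceeded a mean of 1 CPM in each group, but CA9, a hypoxia-induced carbonic anhydrase, was listed at 0 in all sgNTC18 libraries of 786-M1A. Of 7 tested in 786-M1A cells 2 were higher and 5 lower with shPAX8-1, and 3 higher and 3 lower with shPAX8-2. In OS-LM1 cells 3 of 9 were higher and 5 lower with each construct. Between 30.9% and 36.1% of all genes were called in each direction in these comparisons. The OS-LM1 sums were 1448 to 1534 CPM with sgNTC18, 701 to 822 CPM with shPAX8-1 and 867 to 1087 CPM with shPAX8-2. Endothelial markers summed to between 0.375 and 1.41 CPM over the libraries, and the 1 tested did not pass the threshold in any comparison with sgNTC18. The 4 leukocyte markers summed to between 0.246 and 0.577 CPM with sgNTC18, 1.28 and 2.77 CPM with shPAX8-1 and 1.04 and 1.28 CPM with shPAX8-2 in 786-M1A libraries, and to between 0.362 and 0.527, 2.81 and 3.99 and 1.72 and 2.47 CPM in OS-LM1 libraries. CD14, the only one of them tested, was higher with both constructs in both lines, while CD3E was at 0 in every library. The 5 fibroblast markers summed to between 535 and 727 CPM with sgNTC18, 203 and 425 CPM with shPAX8-1 and 671 and 891 CPM with shPAX8-2 in 786-M1A libraries, nearly all of it PDGFRB. In OS-LM1 libraries the sums were between 14.9 and 20.1, 91.7 and 113 and 101 and 207 CPM, mostly COL1A1. Of the 4 tested there, 4 were higher with shPAX8-1 (35.6% of all genes tested) and 3 with shPAX8-2 (34.3% of all genes). In 786-M1A cells 2 of 3 tested were higher and 1 lower with shPAX8-1 (36.1% and 34.5% of all genes). With shPAX8-2, 2 were higher and 0 lower (31.5% and 30.9% of all genes). Some renal and fibroblast markers and CD14 thus moved with the constructs, as did a large share of all genes, and their part in the keratin results was not tested. In all that follows, fewer cells with a transcript and less transcript per cell cannot be told apart in bulk RNA.

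With sgNTC18 the 10 keratins spanned a wide range, from the most abundant, KRT19, to transcripts with few counts. KRT8, KRT18 and KRT19 made up 94.5 ± 0.189% (SD, n = 4) of their summed TPM, a level scaled for transcript length and library total, in 786-M1A sgNTC18 libraries and 91.8 ± 0.295% in OS-LM1 sgNTC18 libraries. On the TPM scale the order in 786-M1A sgNTC18 libraries was KRT19, KRT18, KRT8, KRT80, KRT10, KRT34, KRT7, KRT17, KRT81 and KRT86. The libraries of KRT18 and KRT8 overlapped, as did each neighbouring pair from KRT34 to KRT86. OS-LM1 sgNTC18 libraries had the same order down to KRT80, followed by KRT81, KRT10, KRT7, KRT34, KRT17 and KRT86, and the overlapping neighbours were KRT18 with KRT8, KRT81 with KRT10 and KRT34 with KRT17. KRT18 took the first rank from KRT19 with shPAX8-2 in 786-M1A cells (193 against 112 TPM) and in OS-LM1 cells (641 against 553 TPM), without overlap, and with shPAX8-1 in OS-LM1 cells (516 against 451 TPM), where the libraries overlapped. With shPAX8-1 in 786-M1A cells KRT10 stood above KRT8 and KRT34 above KRT80, each with overlapping libraries. The plot of levels by group is in CPM, which is not scaled for transcript length, so its order can differ from these ranks. With shPAX8-1 in 786-M1A cells, for example, mean KRT80 was 24.3 CPM and mean KRT34 13.8 CPM. The different course of KRT8, KRT18, KRT81 and KRT34 in the 2 lines can be seen in it.

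**Figure D1:**
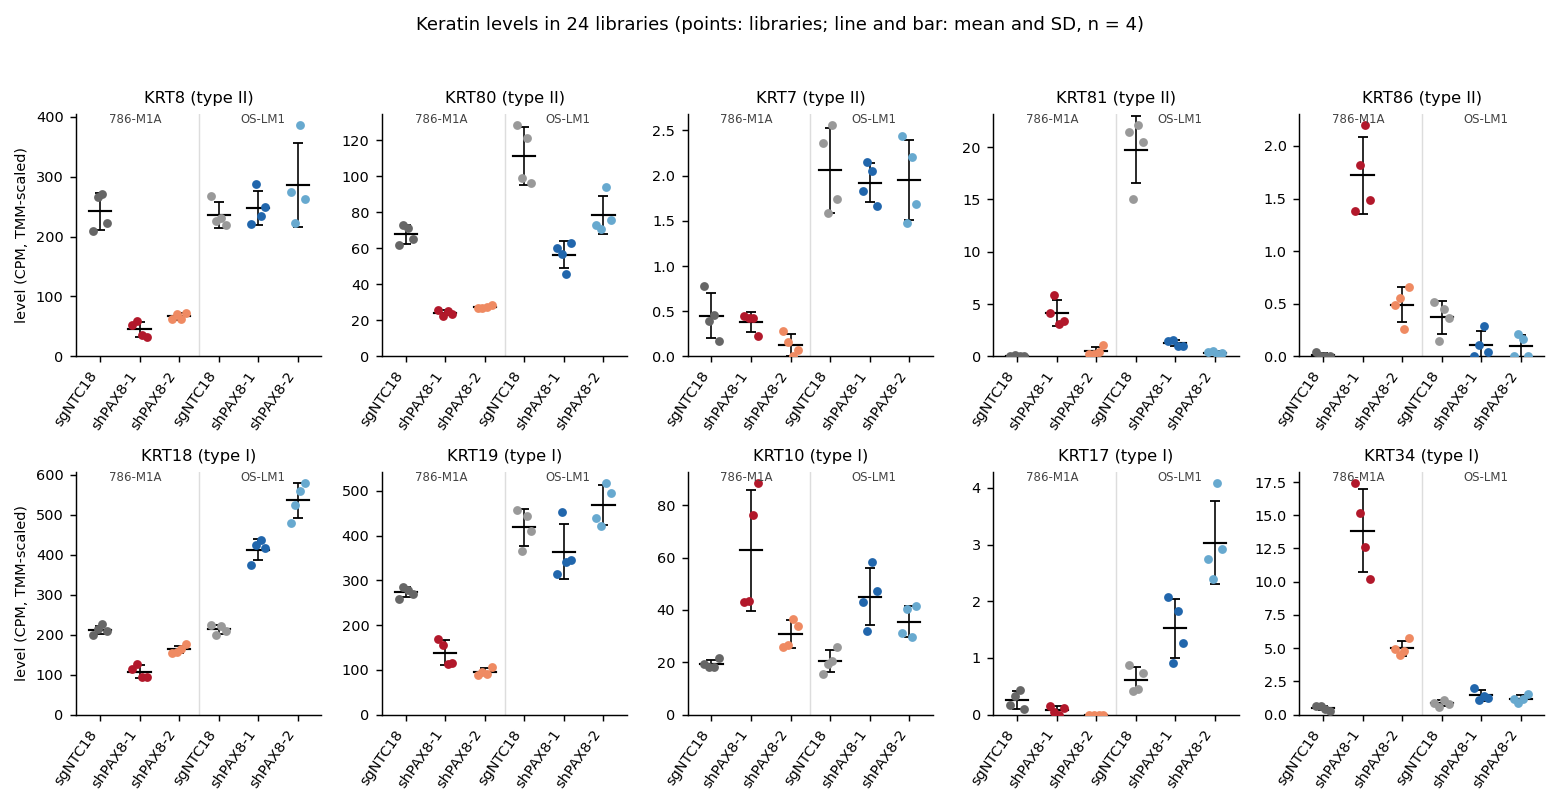
Level of each keratin in TMM-scaled CPM (y axes from 0, differing in range) in the 6 groups, with 786-M1A on the left and OS-LM1 on the right of each panel; points are libraries, the line and bar are mean and SD of 4 libraries. KRT8 is between 209 and 271 CPM in 786-M1A sgNTC18 libraries and below 73 CPM in every shPAX8 library of that line, whereas all OS-LM1 libraries lie between 219.7 and 386 CPM.

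KRT8, the type II chain of the simple epithelial pair, was lower with both constructs in 786-M1A cells and not in OS-LM1 cells. In 786-M1A cells KRT8 was at 209, 265, 271 and 223 CPM with sgNTC18, 52.2, 58.9, 35.9 and 32.7 CPM with shPAX8-1 and 61.7, 70.5, 62.9 and 72.7 CPM with shPAX8-2. Every shPAX8 library lay below every sgNTC18 library, and every shPAX8-1 library below every shPAX8-2 library. The log2 fold change against sgNTC18 by edgeR's quasi-likelihood test was -2.41 (SE 0.17, adjusted p = 1.14e-08) with shPAX8-1, a 5.31-fold lower level, and -1.83 (SE 0.17, adjusted p = 2.89e-07) with shPAX8-2, SE being the standard error. Between shPAX8-1 and shPAX8-2 it was -0.57 (SE 0.17, adjusted p = 0.0114). The shPAX8-1 libraries were uneven, with replicates 1 and 2 at 52.2 and 58.9 CPM and replicates 3 and 4 at 35.9 and 32.7 CPM. With replicates 1 and 2 alone the difference between the constructs was -0.27 (adjusted p = 0.133) and no longer past the threshold. The split was not particular to KRT8. KRT18, KRT19, KRT34, KRT81 and PAX8 were also lower in replicates 3 and 4, KRT10 was higher, and KRT80 and KRT86 showed no such split. Chi-square per gene grows with the difference between 2 libraries. Over all genes it was 14.1 between replicates 1 and 2 and 3.73 between 3 and 4. Across these pairs it was 44.7 to 77.4, and it reached 89.5 in OS-LM1 shPAX8-2.

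In OS-LM1 cells KRT8 was at 268, 226, 231 and 219.7 CPM with sgNTC18, 221, 288, 233 and 249 CPM with shPAX8-1 and 274, 223, 386 and 262 CPM with shPAX8-2. The 3 groups overlapped. Against sgNTC18 the log2 fold change was 0.044 (SE 0.13, adjusted p = 0.766) with shPAX8-1 and 0.28 (SE 0.13, adjusted p = 0.0567) with shPAX8-2. The adjusted p of both fell below 0.05 once each library's trend with GC content was removed, at a log2 fold change of 0.37 and 0.51, respectively. The difference between the lines in the response to shPAX8, both constructs averaged, was 2.32 (SE 0.20, adjusted p = 1.57e-10), positive values being higher in OS-LM1.

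KRT18, the type I partner of KRT8, moved in opposite directions in the lines. In 786-M1A cells KRT18 was at 199.6, 213, 226 and 209.8 CPM with sgNTC18, 114, 127, 93.3 and 94.5 CPM with shPAX8-1 and 155, 157, 165 and 176 CPM with shPAX8-2, with no overlap between groups. It fell by 0.96 on the log2 scale with shPAX8-1 (SE 0.11, adjusted p = 1.19e-06) and by 0.36 with shPAX8-2 (SE 0.11, adjusted p = 0.00849). In OS-LM1 cells KRT18 was at 225, 198, 222 and 208 CPM with sgNTC18, 374, 423, 438 and 417 CPM with shPAX8-1 and 481, 524, 561 and 579 CPM with shPAX8-2. Again no groups overlapped, but here every shPAX8 library was above every sgNTC18 library. The rise was 0.93 (SE 0.082, adjusted p = 5.21e-09) with shPAX8-1 and 1.34 (SE 0.082, adjusted p = 4.17e-11) with shPAX8-2, which is 1.90-fold and 2.52-fold. Of the constructs, shPAX8-1 gave less KRT18 than shPAX8-2 in both lines, with log2 fold changes of -0.61 (SE 0.11, adjusted p = 5.15e-04) in 786-M1A cells and -0.41 (SE 0.081, adjusted p = 8.85e-04) in OS-LM1 cells, and this difference between the constructs did not pass the threshold for differing between the lines (0.23 (SE 0.13, adjusted p = 0.202)). The response to shPAX8 did differ between the lines, by 1.82 (SE 0.12, adjusted p = 5.49e-13).

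KRT8 and KRT18 lie next to each other on chromosome 12 of GRCh38 on opposite strands, KRT8 from 52897191 to 52949860 and KRT18 from 52948855 to 52952906, with annotated spans that share 1006 bases. The labels name a stranded library kit, but whether counting used the strand is not given in the sources used here. The ratio of KRT8 to KRT18 on the TPM scale is a description of their balance. It was 0.897 ± 0.0791 (SD, n = 4) in 786-M1A sgNTC18 libraries and 0.883 ± 0.0567 in OS-LM1 sgNTC18 libraries. With shPAX8-1 and shPAX8-2 it was 0.320 ± 0.0441 and 0.321 ± 0.0229 in 786-M1A cells and 0.481 ± 0.0468 and 0.428 ± 0.0998 in OS-LM1 cells. No shPAX8 library of either line, at most 0.557, overlapped a sgNTC18 library, at least 0.824. The lower ratio went with a larger decrease of KRT8 than of KRT18 in 786-M1A cells and with a rise of KRT18 beside a KRT8 level that did not pass the test in OS-LM1 cells.

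**Figure D2:**
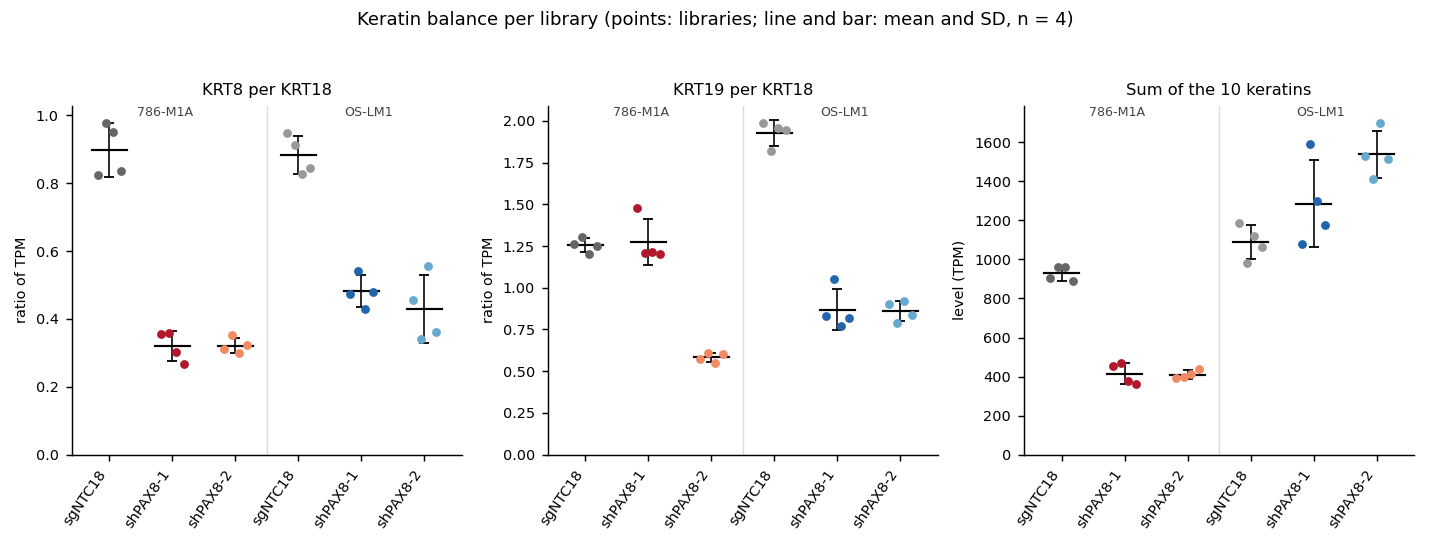
Ratio of KRT8 to KRT18 and of KRT19 to KRT18 (TPM ratios) and summed TPM of the 10 keratins in each library, with mean and SD of 4 libraries per group; all y axes start at 0. The KRT8 to KRT18 ratio is lower in all 16 shPAX8 libraries than in all 8 sgNTC18 libraries, while the summed level is lower with shPAX8 in 786-M1A and not in OS-LM1.

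Summed over the 10 genes, keratin transcripts came to 929 ± 38.1 TPM (SD, n = 4) with sgNTC18, 415 ± 55.2 TPM with shPAX8-1 and 409 ± 21.7 TPM with shPAX8-2 in 786-M1A cells. The OS-LM1 sums were 1089 ± 87.2, 1286 ± 222 and 1539 ± 120.1 TPM. The ratio of the summed type II to the summed type I chains was 0.439 ± 0.0373, 0.161 ± 0.0205 and 0.224 ± 0.0123 in the same order in 786-M1A cells and 0.385 ± 0.0232, 0.276 ± 0.0151 and 0.253 ± 0.0490 in OS-LM1 cells. Type I transcripts were thus the more abundant in every group, and by the most with shPAX8-1 in 786-M1A cells.

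KRT19, a type I keratin that lacks most of the tail domain and is used as a marker of ductal epithelium, was the highest of the 10 in both lines with sgNTC18. In 786-M1A cells KRT19 was at 259, 286, 277 and 269 CPM with sgNTC18, 169, 156, 114 and 115 CPM with shPAX8-1 and 88.5, 96.0, 91.5 and 107 CPM with shPAX8-2. No groups overlapped, and here shPAX8-2 gave the lower level. The log2 fold change was -0.96 (SE 0.13, adjusted p = 6.41e-06) with shPAX8-1, -1.49 (SE 0.13, adjusted p = 1.43e-07) with shPAX8-2 and 0.53 (SE 0.13, adjusted p = 0.00349) between them. In OS-LM1 cells KRT19 was at 457, 365, 444 and 409.7 CPM with sgNTC18, 314, 453, 342 and 346 CPM with shPAX8-1 and 440.1, 421, 517 and 495 CPM with shPAX8-2. All 3 groups overlapped, with shPAX8-1 replicate 2 at 453 CPM against at most 346 CPM in the other shPAX8-1 libraries. Neither construct passed the threshold against sgNTC18, at -0.23 (SE 0.11, adjusted p = 0.0651) and 0.17 (SE 0.11, adjusted p = 0.172). Removal of the GC trend turned the first value to 0.22 (adjusted p = 0.0368) and brought the second to 0.50 (adjusted p = 8.83e-05), whereas without shPAX8-1 replicate 2 the first was -0.37 (adjusted p = 0.00314). The constructs differed by -0.39 (SE 0.11, adjusted p = 0.00908) in OS-LM1 cells, opposite in sign to 786-M1A cells, and this difference between the lines was itself -0.90 (SE 0.17, adjusted p = 4.21e-04).

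KRT80, a type II keratin found at cell margins of many epithelia, was the member that was lower with both constructs in both lines. In 786-M1A cells KRT80 was at 61.7, 73.2, 71.5 and 65.4 CPM with sgNTC18, 25.8, 22.7, 25.2 and 23.7 CPM with shPAX8-1 and 26.8, 26.7, 27.2 and 28.3 CPM with shPAX8-2. In OS-LM1 cells KRT80 was at 128, 99.0, 121 and 96.3 CPM with sgNTC18, 60.0, 56.7, 46.0 and 63.0 CPM with shPAX8-1 and 72.7, 70.8, 93.8 and 75.9 CPM with shPAX8-2. In each line every shPAX8 library lay below every sgNTC18 library. The log2 fold changes against sgNTC18 were -1.46 ± 0.10 (± standard error) and -1.30 ± 0.10 in 786-M1A cells and -1.002 ± 0.12 and -0.50 ± 0.11 in OS-LM1 cells, with adjusted p = 7.02e-04 for the last and smaller values for the others. The decrease was smaller in OS-LM1 cells, by 0.66 (SE 0.14, adjusted p = 1.74e-04). Between the constructs KRT80 differed in OS-LM1 cells, at -0.50 (SE 0.12, adjusted p = 0.00257), and did not pass the threshold in 786-M1A cells at -0.16 (SE 0.10, adjusted p = 0.182), where the sign turned to 0.19 once the GC trend was removed.

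KRT7, a type II keratin of ducts whose absence is a common feature of ccRCC in pathology, was near the limit of detection in 786-M1A cells and low in OS-LM1 cells. In 786-M1A cells KRT7 was at 0.780, 0.387, 0.453 and 0.176 CPM with sgNTC18, 0.452, 0.424, 0.421 and 0.221 CPM with shPAX8-1 and 0.284, 0.162, 0 and 0.0666 CPM with shPAX8-2, which is 44, 29 and 9 counts over each group. It did not pass the low-count filter there and its differences were not tested. In OS-LM1 cells KRT7 was at 2.36, 1.58, 2.56 and 1.74 CPM with sgNTC18, 1.83, 2.15, 2.05 and 1.67 CPM with shPAX8-1 and 2.44, 1.48, 2.21 and 1.69 CPM with shPAX8-2. These groups overlapped, at log2 fold changes of -0.12 (SE 0.22, adjusted p = 0.627) and -0.069 (SE 0.22, adjusted p = 0.790) against sgNTC18. KRT7 was higher in OS-LM1 than in 786-M1A cells by 2.17 (SE 0.34, adjusted p = 3.13e-06) with sgNTC18, with no overlap between the lines.

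Of the epidermal keratins, KRT10 was higher with shPAX8 in both lines and KRT17 in OS-LM1 cells. KRT17 had too few counts for a test within 786-M1A cells, where every shPAX8-2 library was below every sgNTC18 library. In 786-M1A cells KRT10 was at 19.4, 18.1, 18.1 and 21.4 CPM with sgNTC18, 43.1, 43.5, 76.2 and 88.4 CPM with shPAX8-1 and 25.8, 26.5, 36.6 and 33.9 CPM with shPAX8-2. In OS-LM1 cells KRT10 was at 15.6, 19.4, 20.6 and 25.8 CPM with sgNTC18, 43.0, 31.9, 58.5 and 47.1 CPM with shPAX8-1 and 31.1, 40.3, 29.6 and 41.3 CPM with shPAX8-2. All shPAX8 libraries were above all sgNTC18 libraries of their line, and within 786-M1A shPAX8-1 replicates 3 and 4 were well above replicates 1 and 2. KRT10 rose by 1.73 (SE 0.22, adjusted p = 4.02e-06) and 0.69 (SE 0.21, adjusted p = 0.0111) in 786-M1A cells and by 1.12 (SE 0.18, adjusted p = 2.32e-05) and 0.81 (SE 0.18, adjusted p = 6.56e-04) in OS-LM1 cells, with shPAX8-1 first. The response did not pass the threshold for differing between the lines (-0.21 (SE 0.25, adjusted p = 0.496)). Between the constructs KRT10 was higher with shPAX8-1 in 786-M1A cells (1.04 (SE 0.21, adjusted p = 0.00141)), and the value in OS-LM1 cells was 0.31 (SE 0.18, adjusted p = 0.198).

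In 786-M1A cells KRT17 was at 0.165, 0.333, 0.439 and 0.101 CPM with sgNTC18 and 0.157, 0.0471, 0 and 0.110 CPM with shPAX8-1, and no count was listed in the 4 shPAX8-2 libraries. It did not pass the filter in that line, with 26, 6 and 0 counts over the groups. In OS-LM1 cells KRT17 was at 0.867, 0.412, 0.446 and 0.724 CPM with sgNTC18, 2.07, 0.915, 1.83 and 1.26 CPM with shPAX8-1 and 2.74, 2.39, 4.08 and 2.93 CPM with shPAX8-2. The 3 groups stood apart without overlap. The log2 fold change was 1.29 (SE 0.31, adjusted p = 9.27e-04) with shPAX8-1 and 2.32 (SE 0.29, adjusted p = 8.84e-07) with shPAX8-2, and -1.04 (SE 0.28, adjusted p = 0.00810) between the constructs. The last lost its call without shPAX8-2 replicate 3, at -0.82 (adjusted p = 0.0535). With shPAX8-2 the mean CPM in OS-LM1 cells was at least 63.9-fold higher than in 786-M1A cells, taken at the limit of 3 counts over the 4 libraries. With shPAX8-1 it was 19.2-fold higher (95% interval of the count ratio 8.59 to 53.1, counting error only), from 139 against 6 counts.

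KRT34, a type I hair cortex keratin, was almost absent with sgNTC18 and higher with both constructs in 786-M1A cells. In 786-M1A cells KRT34 was at 0.617, 0.635, 0.414 and 0.263 CPM with sgNTC18, 17.4, 15.2, 12.6 and 10.2 CPM with shPAX8-1 and 4.91, 4.47, 4.79 and 5.77 CPM with shPAX8-2. The groups did not overlap, and the rise was 4.88 (SE 0.25, adjusted p = 4.14e-10) with shPAX8-1, 29.5-fold, and 3.41 (SE 0.25, adjusted p = 3.48e-08) with shPAX8-2, 10.6-fold. In OS-LM1 cells KRT34 was at 0.898, 0.542, 1.09 and 0.811 CPM with sgNTC18, 2.03, 1.10, 1.43 and 1.24 CPM with shPAX8-1 and 1.14, 0.896, 1.21 and 1.54 CPM with shPAX8-2. The shPAX8-1 libraries were just above those with sgNTC18, while shPAX8-2 overlapped both. The log2 fold change was 0.78 (SE 0.28, adjusted p = 0.0176) with shPAX8-1, which passed the threshold but not without sgNTC18 replicate 2 (0.64, adjusted p = 0.0513) or shPAX8-1 replicate 1 (0.59, adjusted p = 0.0850). With shPAX8-2 it was 0.54 (SE 0.28, adjusted p = 0.0955), and 0.74 (adjusted p = 0.0245) with the GC trend removed. The response was smaller in OS-LM1 cells, with a difference between the lines of -3.45 (SE 0.33, adjusted p = 1.74e-09). Its difference between the constructs, 1.47 (SE 0.19, adjusted p = 5.48e-05) in 786-M1A cells, also differed between the lines (-1.21 (SE 0.32, adjusted p = 0.00675)).

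KRT81 and KRT86 are type II hair keratins. KRT81 lies on chromosome 12 from 52285913 to 52291534 on the minus strand, wholly within the annotated span of KRT86 on the plus strand, from 52274645 to 52309163. The transcripts are close copies, and 38.4% of the 50-base windows of KRT81 occur in KRT86 and 35.3% of those of KRT86 in KRT81, so the split of reads between them is uncertain. In 786-M1A cells KRT81 was at 0, 0.166, 0.0324 and 0.0439 CPM with sgNTC18, 4.18, 5.85, 3.07 and 3.41 CPM with shPAX8-1 and 0.254, 0.182, 0.393 and 1.06 CPM with shPAX8-2. The sgNTC18 libraries held 5 counts in all, and no groups overlapped. From the counts, shPAX8-1 was 81.2-fold higher than sgNTC18 (95% interval 34.4 to 252, counting error only) and shPAX8-2 8.52-fold higher (3.25 to 28.3). By edgeR's quasi-likelihood test the adjusted p was 2.81e-07 and 0.00374, and the difference between the constructs was 3.18 (SE 0.46, adjusted p = 1.28e-04), 9.07-fold. Single libraries weigh on these sizes. Without shPAX8-2 replicate 4, at 1.06 CPM, the constructs differed by 4.002 on the log2 scale and the value of shPAX8-2 against sgNTC18 was 2.15 in place of 2.97. Without sgNTC18 replicate 2 the values against sgNTC18 were 7.03 in place of 6.15 with shPAX8-1 and 3.85 with shPAX8-2. All of these kept their call.

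In OS-LM1 cells KRT81 was at 21.4, 15.1, 22.1 and 20.5 CPM with sgNTC18, 1.46, 1.58, 1.04 and 0.987 CPM with shPAX8-1 and 0.420, 0.503, 0.270 and 0.288 CPM with shPAX8-2. Here the sgNTC18 libraries were the high ones, and again no groups overlapped. The log2 fold change was -4.00 (SE 0.18, adjusted p = 3.63e-13) with shPAX8-1 and -5.87 (SE 0.22, adjusted p = 2.61e-14) with shPAX8-2, a 16.0-fold and 58.6-fold lower level. As in the other line, shPAX8-1 gave more KRT81 than shPAX8-2, by 1.87 (SE 0.27, adjusted p = 3.94e-05). In the response to shPAX8 the lines thus went in opposite directions, with a difference of -9.50 (SE 0.57, adjusted p = 1.95e-13), or -10.40 without 786-M1A sgNTC18 replicate 2.

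In 786-M1A cells KRT86 was at 0.0411, 0, 0 and 0 CPM with sgNTC18, 1.39, 1.81, 2.20 and 1.49 CPM with shPAX8-1 and 0.486, 0.552, 0.264 and 0.657 CPM with shPAX8-2. A single count was found with sgNTC18, and the ratio of counts was 164 (95% interval 28.9 to 6522) with shPAX8-1 and 48.7 (8.13 to 1982) with shPAX8-2. Without that library, sgNTC18 replicate 1, the fitted log2 fold change went from 6.70 to 8.05 with shPAX8-1 and from 4.93 to 6.28 with shPAX8-2, and gives no size. The constructs differed by 1.77 (SE 0.35, adjusted p = 0.00108). In OS-LM1 cells KRT86 was at 0.513, 0.151, 0.453 and 0.365 CPM with sgNTC18, 0, 0.109, 0.289 and 0.0379 CPM with shPAX8-1 and 0, 0.210, 0.168 and 0 CPM with shPAX8-2, and it did not pass the filter. Summed to 1 feature, KRT81 and KRT86 kept the directions of KRT81, at 6.42 ± 0.43 (± standard error) and 3.81 ± 0.52 against sgNTC18 in 786-M1A cells, where that group held 6 counts of the sum, and -3.91 ± 0.19 and -5.50 ± 0.22 in OS-LM1 cells.

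Counted over the members, keratins moved in both directions in each comparison with sgNTC18, and the 4 comparisons share the sgNTC18 libraries of their line. In 786-M1A cells all 8 keratins tested passed an adjusted p under 0.05 with shPAX8-1, 4 higher (36.1% of all 14452 genes tested were higher) and 4 lower (34.5% of all genes). With shPAX8-2 it was again 4 higher (31.5% of all genes) and 4 lower (30.9% of all genes). KRT10, KRT34, KRT81 and KRT86 were the higher and KRT8, KRT18, KRT19 and KRT80 the lower ones with either construct. In OS-LM1 cells 6 of 9 passed with shPAX8-1, with KRT10, KRT17, KRT18 and KRT34 higher (35.6% of all 15049 genes) and KRT80 and KRT81 lower (35.8% of all genes). With shPAX8-2 5 of 9 passed, with KRT10, KRT17 and KRT18 higher (34.3% of all genes) and KRT80 and KRT81 lower (34.1% of all genes). The median log2 fold change of the keratins tested was 0.38 and 0.17 in 786-M1A cells and 0.044 and 0.28 in OS-LM1 cells, with shPAX8-1 first, against medians between -0.014 and 0.034 over all genes.

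**Figure D3:**
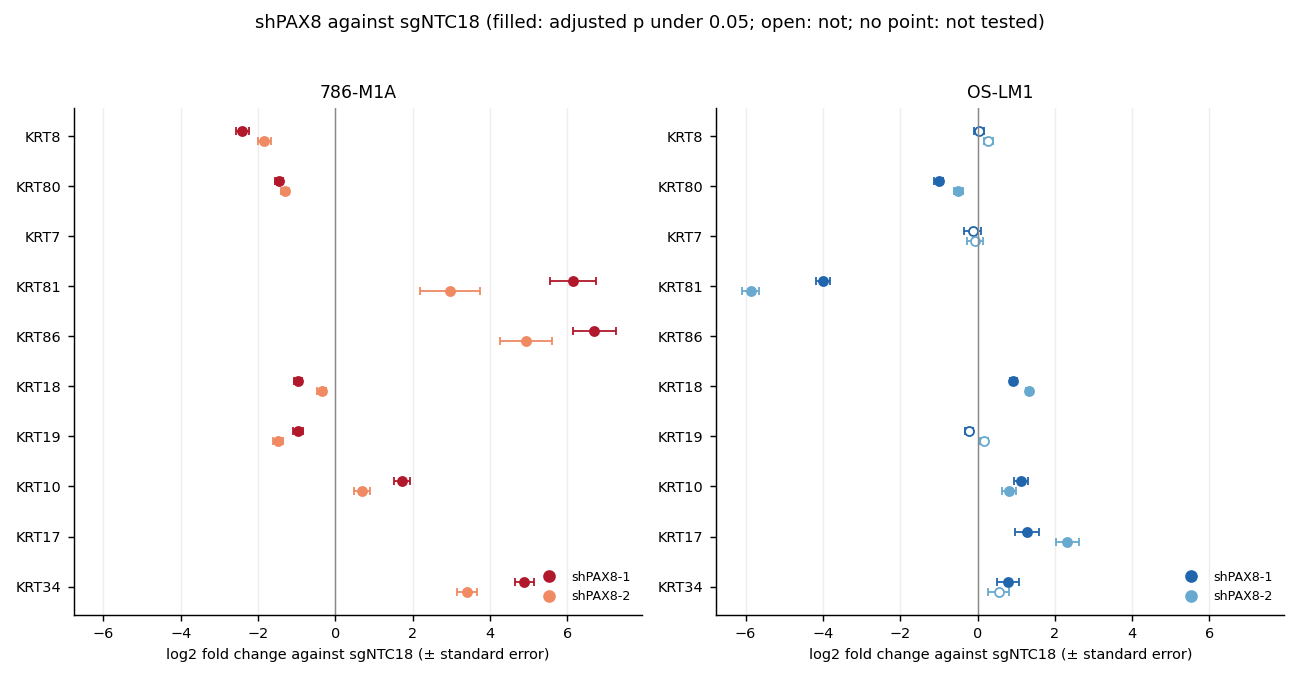
Log2 fold change (x axis, ± standard error) of each keratin against sgNTC18 for shPAX8-1 and shPAX8-2 in 786-M1A (left) and OS-LM1 (right); filled points passed an adjusted p under 0.05, open points did not, and keratins without a point did not pass the low-count filter. KRT8 and KRT18 lie left of 0 in 786-M1A and at or right of it in OS-LM1, and KRT81 lies far right in 786-M1A, where sgNTC18 held 5 counts, and far left in OS-LM1.

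Tested directly, the response to shPAX8 differed between the lines for 8 of 10 keratins. It was more positive in OS-LM1 for KRT8, KRT17, KRT18, KRT19 and KRT80 (29.9% of all 15665 genes tested over both lines) and more negative for KRT34, KRT81 and KRT86 (28.8% of all genes). KRT7 and KRT10 did not pass. For KRT7 the value was 0.86 (SE 0.46, adjusted p = 0.114). The values of KRT17, KRT81 and KRT86 rest on groups with 6 or fewer counts, and only their direction is read here. PAX8 itself fell less in OS-LM1 cells, at -1.76 and -1.71 against sgNTC18, than in 786-M1A cells, at -4.16 and -2.99, with shPAX8-1 first. Its part in the differences between the lines was not tested.

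Between the constructs, 7 of 8 keratins tested differed in 786-M1A cells, with KRT10, KRT19, KRT34, KRT81 and KRT86 higher with shPAX8-1 (24.2% of all genes) and KRT8 and KRT18 lower (22.9% of all genes). In OS-LM1 cells 5 of 9 differed, with KRT81 higher (12.4% of all genes) and KRT17, KRT18, KRT19 and KRT80 lower (16.7% of all genes). The median over the members was 0.78 in 786-M1A and -0.24 in OS-LM1 cells, against -0.016 and -0.034 over all genes. PAX8 itself differed between the constructs in 786-M1A cells (-1.18 (SE 0.15, adjusted p = 4.01e-05)) and had -0.050 (SE 0.12, adjusted p = 0.797) in the other line. Of the differences between the constructs, none was more positive in OS-LM1 (12.7% of all genes) and those of KRT17, KRT19 and KRT34 were more negative (14.5% of all genes). KRT17 has no count with shPAX8-2 in 786-M1A cells and its call was lost without shPAX8-1 replicate 1 (adjusted p = 0.0586) or 4 (adjusted p = 0.0521) of that line.

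**Figure D4:**
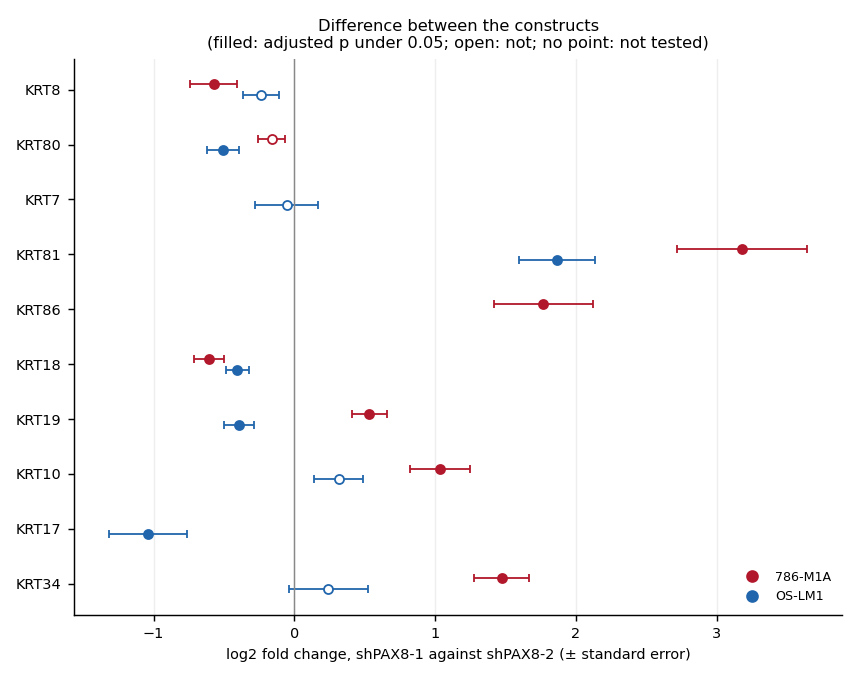
Log2 fold change of each keratin between shPAX8-1 and shPAX8-2 (x axis, ± standard error; positive is higher with shPAX8-1) in 786-M1A and OS-LM1; filled points passed an adjusted p under 0.05. KRT81 is higher with shPAX8-1 and KRT18 lower in both lines, and KRT19 lies at 0.53 in 786-M1A and at -0.39 in OS-LM1.

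GC content moved with these differences. Across genes, which are not independent replicates, the log2 fold change between the constructs had a Spearman correlation of -0.557 with transcript GC content in 786-M1A cells (13073 genes) and -0.206 in OS-LM1 cells (13578 genes). Against sgNTC18 it was -0.363 with shPAX8-1 and -0.098 with shPAX8-2 in 786-M1A cells and -0.321 and -0.275 in OS-LM1 cells, the line in which removal of the trend changed the calls of KRT8, KRT19 and KRT34 given above. The longest transcripts of the 10 keratins had a GC content between 52.1% (KRT10) and 62.3% (KRT81), above the median of 47.8% over the genes tested in 786-M1A cells. With the trend of each library removed, 7 and 5 keratins again differed between the constructs in 786-M1A and OS-LM1 cells, and 6 in place of 3 differed between the lines in that respect. The number of all genes called in each of these comparisons stayed within 1.5 times of its value with the trend left in.

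The lines were also compared at each state. With sgNTC18, KRT8, KRT10 and KRT18 did not pass the threshold, at -0.036 (SE 0.16, adjusted p = 0.851), 0.081 (SE 0.21, adjusted p = 0.753) and 0.008 (SE 0.093, adjusted p = 0.945) in OS-LM1 against 786-M1A. The other 7 were higher in OS-LM1 (32.0% of all genes) and none was lower (31.0% of all genes). KRT19 was 1.53-fold and KRT80 1.64-fold higher, and KRT81, with 2748 against 5 counts, 381-fold (95% interval 163 to 1173, counting error only). Without 786-M1A replicate 2 the fitted log2 value of KRT81 went from 8.42 to 9.33, and without replicate 1 that of KRT86 from 4.57 to 6.15. The calls of KRT17 (1.19 (SE 0.44, adjusted p = 0.0228)) and KRT34 (0.82 (SE 0.29, adjusted p = 0.0175)) had overlapping libraries. KRT17 was lost without 786-M1A replicate 1 (1.02) or 4 (0.92) or OS-LM1 replicate 1 (0.97) or 4 (1.11). KRT34 was lost without 786-M1A replicate 3 (0.76) or 4 (0.63) or OS-LM1 replicate 3 (0.66).

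With shPAX8, both constructs averaged, 9 of 10 keratins differed between the lines. KRT7, KRT8, KRT17, KRT18, KRT19 and KRT80 were higher in OS-LM1 (41.7% of all genes) and KRT34, KRT81 and KRT86 lower (41.5% of all genes). KRT8 was 4.85-fold (2.28 (SE 0.12, adjusted p = 5.09e-16)), KRT18 3.56-fold and KRT19 3.59-fold higher, whereas KRT34 was 6.21-fold lower. The call of KRT81 (-1.07 (SE 0.29, adjusted p = 0.00136)) was lost with the GC trend removed, at -0.58 (adjusted p = 0.0550). KRT10 did not differ past the threshold, at -0.13 (SE 0.15, adjusted p = 0.410).

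Promoter sequences of RefSeq (GRCh38.p14) were found for 3 members, KRT8, KRT10 and KRT34. Those of KRT10 and KRT34 are shown because both rose with shPAX8-1 in each line. They give the 250 bases before the start on the gene's strand, 5′ to 3′, with the TATAAA match in capitals.
KRT10, chr17:40822615-40822864, minus strand: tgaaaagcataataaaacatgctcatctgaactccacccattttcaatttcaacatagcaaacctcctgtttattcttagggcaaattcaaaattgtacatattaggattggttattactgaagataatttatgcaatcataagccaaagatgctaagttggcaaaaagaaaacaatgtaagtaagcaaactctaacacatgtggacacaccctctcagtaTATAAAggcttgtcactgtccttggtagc
KRT34, chr17:41382307-41382556, minus strand: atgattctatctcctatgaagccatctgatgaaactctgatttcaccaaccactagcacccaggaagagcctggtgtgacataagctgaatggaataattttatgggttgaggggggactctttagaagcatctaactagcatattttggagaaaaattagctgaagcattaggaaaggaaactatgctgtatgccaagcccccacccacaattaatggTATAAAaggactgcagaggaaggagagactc
The motif TATAAA, searched on both strands, begins 29 bases before the start of KRT10 and 31 bases before that of KRT34, and occurs in 10.7% of 35116 promoter windows of the same length. It was not matched in the KRT8 window. The windows of KRT8 and KRT34 lie at starts within the annotated spans of these genes, which therefore have other starts further upstream. The AP-1 motif TGANTCA (6.57% of windows), the hypoxia-response cores ACGTG and GCGTG (43.2%) and the GC box GGGCGG (42.6%) had no match in the 3 windows. The GC content of the windows was 34.8% for KRT10, 42.4% for KRT34 and 50.4% for KRT8, against a median of 58.0% over all windows.

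Of 45 other keratin genes in the files, 5 had no count in any library and 3 reached a mean of 5 CPM in a group. KRT15, a type I keratin of basal cells, was at 10.9 ± 1.45, 23.9 ± 3.14 and 12.5 ± 0.914 CPM (SD, n = 4) with sgNTC18, shPAX8-1 and shPAX8-2 in 786-M1A cells and at or below a mean of 2.33 CPM in each OS-LM1 group. It rose with shPAX8-1 in 786-M1A cells (1.15 (SE 0.13, adjusted p = 1.60e-06)), with 0.21 (SE 0.13, adjusted p = 0.175) for shPAX8-2. In OS-LM1 cells it fell with shPAX8-1 (-0.74 (SE 0.25, adjusted p = 0.0110)), with -0.50 (SE 0.24, adjusted p = 0.0742) for shPAX8-2, and the response differed between the lines (-1.27 (SE 0.21, adjusted p = 1.40e-05)). KRT79 was at 8.48 ± 0.679 CPM with sgNTC18 in 786-M1A cells and fell with both constructs there (-1.13 and -1.06, adjusted p = 2.81e-05 and 7.80e-05). KRT222 was at 6.66 ± 2.12 CPM with sgNTC18 in OS-LM1 cells and changed by -0.47 (SE 0.22, adjusted p = 0.0674) and -1.21 (SE 0.23, adjusted p = 1.35e-04). In all, 2 of 3 tested were higher and 1 lower with shPAX8-1 in 786-M1A cells (36.1% and 34.5% of all genes). With shPAX8-2 in that line 1 was higher and 1 lower (31.5% and 30.9% of all genes). In OS-LM1 cells 3 of 10 were higher and 4 lower with each construct, beside 35.6% and 35.8% of all genes with shPAX8-1 and 34.3% and 34.1% with shPAX8-2, which is close to the same share. Among 8 keratinocyte markers, only KRT15 exceeded a mean of 1 CPM in any group.

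Keratin filaments are anchored by plakins and by desmosomal and hemidesmosomal proteins. These and other genes, such as TRADD, SFN and TCHP, made a list of 24, with 18 tested in 786-M1A and 20 in OS-LM1 cells. The list also held KRTCAP2 and KRTCAP3, whose names refer to keratinocytes and not to keratin. In 786-M1A cells 6 were higher and 8 lower with shPAX8-1 (36.1% and 34.5% of all genes), and 4 higher and 8 lower with shPAX8-2 (31.5% and 30.9% of all genes). In OS-LM1 cells the numbers were 7 and 11 with shPAX8-1 (35.6% and 35.8% of all genes) and 7 and 12 with shPAX8-2 (34.3% and 34.1% of all genes). Their median log2 fold change was -0.30 and -0.080 in 786-M1A and -0.48 and -0.42 in OS-LM1 cells. JUP (plakoglobin, of the desmosomal plaque) was at 4.32 ± 1.08, 0.515 ± 0.115 and 1.86 ± 0.882 CPM in 786-M1A cells and at 59.2 ± 9.24, 110.2 ± 15.0 and 173 ± 42.2 CPM in OS-LM1 cells. It fell in the first line, at log2 fold changes of -3.02 and -1.16, and rose in the second, at 0.87 and 1.55, the same signs as KRT18, and the difference between the lines was 3.31 (SE 0.29, adjusted p = 2.93e-10). TRADD, an adaptor of the TNF receptor that binds KRT18, fell in both lines, at -3.84 and -2.44 in 786-M1A cells and -1.63 and -1.54 in OS-LM1 cells. ITGB4, the hemidesmosomal integrin chain, rose by 3.01 and 4.82 in 786-M1A cells and by 2.19 and 3.33 in OS-LM1 cells. PPL (periplakin) rose by 4.11 and 2.73 in OS-LM1 cells. DSC2 (desmocollin 2) rose in 786-M1A cells, at 1.12 and 1.12, and fell in OS-LM1 cells, at -1.35 and -0.53. The adjusted p of these values was at most 0.0440. Between the constructs 2 of 18 were higher and 6 lower with shPAX8-1 in 786-M1A cells (24.2% and 22.9% of all genes) and 2 of 20 higher and 4 lower in OS-LM1 cells (12.4% and 16.7% of all genes).

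Of 14 other intermediate filament genes, 8 were tested in 786-M1A and 11 in OS-LM1 cells. With shPAX8-1 2 were higher and 5 lower in 786-M1A cells (36.1% and 34.5% of all genes) and 5 higher and 4 lower in OS-LM1 cells (35.6% and 35.8% of all genes). With shPAX8-2 the numbers were 2 and 5 (31.5% and 30.9% of all genes) and 3 and 6 (34.3% and 34.1% of all genes). Vimentin (VIM), the mesenchymal filament that ccRCC cells make beside keratins, was at 8727 ± 90.2, 7891 ± 304 and 8146 ± 347 CPM in 786-M1A cells and at 10131 ± 1396, 5501 ± 103 and 4221 ± 539.9 CPM in OS-LM1 cells. It fell in OS-LM1 cells, at -0.90 and -1.26, and had -0.12 (SE 0.070, adjusted p = 0.126) and -0.079 (SE 0.070, adjusted p = 0.339) in 786-M1A cells. Lamin A/C (LMNA), of the nuclear lamina, fell in both lines, at -2.92 and -2.14 in 786-M1A and -1.12 and -1.10 in OS-LM1 cells, with adjusted p at most 3.55e-07. In 786-M1A cells LMNA and KRT8 were thus both lower with either construct, and in OS-LM1 cells LMNA fell where KRT8 did not pass the test.

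The genes closest to a keratin in pattern were found among 9362 or 9363 genes by the root mean square difference of log2 CPM, each centred on its mean over the 24 libraries, as a description. PKM (0.16), AEN (0.22) and LPCAT3 (0.27) were closest to KRT8, and TNFAIP1 (0.14), PRDM2 (0.20) and GLIPR2 (0.22) to KRT18. KRT18 was only at rank 437 for KRT8 and KRT8 at rank 1601 for KRT18, at a difference of 0.63. TRAPPC2L (0.22), SIPA1L2 (0.23) and SNX11 (0.25) were closest to KRT19, PRPF19 (0.13), NOP56 (0.19) and PHB2 (0.22) to KRT80, and TBX15 (0.54), LINC01296 (0.59) and RWDD4 (0.59) to KRT7, whose low counts leave a wider spread.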

How the data were processed

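RNA-seq was analysed for 24 libraries, 4 in each of 6 groups taken from the labels. The authors aligned reads to hg38 with Bowtie2 and RSEM, per the labels, and deposited, for each library, RSEM expected counts (estimated counts per gene, not normalized) and TPM for 26475 RefSeq genes. Tool versions, annotation release and strand setting are not given in the sources used here. The library kit is KAPA stranded mRNA in the labels and Lexogen in the study's methods.

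Counts were rounded to whole numbers and fitted with edgeR 4.0.16 (R 4.3.3). Genes passing filterByExpr were normalized by TMM and compared by robust quasi-likelihood tests, with p-values adjusted after Benjamini and Hochberg over 14452 genes (the 12 libraries of 786-M1A), 15049 genes (the 12 of OS-LM1) or 15665 genes (all 24, for comparisons between lines). The threshold was an adjusted p under 0.05. DESeq2 1.42.0, the tool of the study, was an alternative, as were other settings given in the closing section. CPM used TMM library sizes over 24 libraries. A fold against a group without counts used a floor of 3 counts. Intervals of count ratios are at the 95% level, and like the floor cover counting error only. Depth, 11634419 to 52059375 expected counts per library, leaves KRT7, KRT17, KRT81 and KRT86 imprecise in some groups.

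The members and all gene lists were chosen with earlier results of these data known. The naming rule took all members, PAX8, other keratins with a mean of at least 5 CPM in a group, VIM and LMNA. From the list of anchoring genes and others set beside them, it took the 3 that differed most between the constructs in each line. It also took the 3 genes closest in pattern to KRT7, KRT8, KRT18, KRT19 and KRT80. GC content was that of the longest GENCODE transcript of each symbol, and its trend was removed with a spline of 5 degrees of freedom. Positions are those of RefSeq on GRCh38. The edgeR fits were tested on simulated counts of constant dispersion, with changes planted only in genes with higher counts. That test did not cover keratins with few counts, uneven replicates, GC removal, DESeq2 or the sequence searches. No pair of replicates was as close as sampling noise. FPKM were not used here.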

Additional observations from a re-analysis of the deposited data

Results flagged for a closer look

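Of 59 sets of 4 libraries checked for a library apart from the rest, 2 were flagged, where chance flags about 1 in 20, or 2.95. KRT7 in 786-M1A shPAX8-1 replicate 4 was at 0.221 CPM, with the other 3 libraries between 0.421 and 0.452 CPM. KRT86 in 786-M1A sgNTC18 replicate 1 was at 0.041 CPM, which is 1 count, and the other 3 were at 0.

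The response to shPAX8 differed between the lines (OS-LM1 less 786-M1A, log2 scale, edgeR's quasi-likelihood test) for 8 keratins. It was 2.32 for KRT8 (adjusted p = 1.57e-10), 1.82 for KRT18 (adjusted p = 5.49e-13), 1.23 for KRT19 (adjusted p = 1.13e-07) and 0.66 for KRT80 (adjusted p = 1.74e-04). It was -3.45 for KRT34 (adjusted p = 1.74e-09). The values of 5.49 for KRT17, -9.50 for KRT81 and -7.62 for KRT86 involve groups with 6 or fewer counts and are no estimate of size. The construct difference (shPAX8-1 against shPAX8-2) differed between the lines by -5.03 for KRT17, with the same limit, by -0.90 for KRT19 (adjusted p = 4.21e-04) and by -1.21 for KRT34 (adjusted p = 0.00675). The cause of these differences was not tested.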

How the results depend on the processing

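Among the settings other than leaving out a library, 672 keratin log2 fold changes kept direction and, where an adjusted p was given, side of the threshold. With direction kept, 16 became significant and 3 lost the call, and 12 changed sign. The last include KRT19 with shPAX8-1 in OS-LM1 cells, which also became significant with the GC trend removed. The 4 controls per line are CRISPR guide libraries and low counts limit KRT7, KRT17, KRT81 and KRT86. Of the numbers of keratins called, 95 stayed within 1.5 times and 5 did not. At an absolute log2 fold change over 0.58, 2 differed between the constructs in OS-LM1 cells. With the GC trend removed 8 were called for shPAX8-2 against sgNTC18 in OS-LM1 cells and 6 for the line difference between the constructs, and both numbers were the same with the replicate block added. In both comparisons the number of all genes called stayed within 1.5 times under these settings. The number of all genes that differed between the constructs in 786-M1A cells, 6803, was 3869 with shPAX8-1 replicates 1 and 2 only, 4329 at an adjusted p under 0.01 and 4335 at an absolute log2 fold change over 0.58. In OS-LM1 cells the last 2 gave 2703 and 1978 in place of 4378, and the line difference at an adjusted p under 0.01 gave 2449 in place of 4264. The cause was not tested beyond the stricter thresholds themselves.

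Signs changed with the GC trend removed for KRT80 between the constructs in 786-M1A cells (0.19), for KRT7 in OS-LM1 cells between the constructs (0.11) and against sgNTC18 (0.34 and 0.23), for KRT19 with shPAX8-1 in OS-LM1 cells (0.22) and for KRT8 between the lines with sgNTC18 (0.14). With the replicate block added these were 0.18, 0.11, 0.35, 0.24, 0.22 and 0.14.

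Same-numbered libraries did not deviate together (mean correlation 0.047 in the 786-M1A line and -0.041 in the OS-LM1 line), so the numbers were not read as pairs. The replicate block alone made 1 call, the line difference of KRT10 between the constructs (-0.67, adjusted p = 0.0383), and DESeq2 1, that of KRT81 (-1.31). The block gave 7 keratins called between the constructs for 786-M1A and 5 for OS-LM1.

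With each library left out in turn, keratins called were 7 to 7 (786-M1A) and 4 to 6 (OS-LM1) between the constructs, 8 to 8 with either construct against sgNTC18 in 786-M1A cells, 5 to 7 with either in the other line, 5 to 7 between the lines with sgNTC18, 9 to 9 with shPAX8, 2 to 4 for the line difference between the constructs and 8 to 9 for that of shPAX8. Single-keratin values changed sign in 14 such fits, all of them without a call with all libraries. They ranged over -0.14 to 0.049 (KRT7 between the constructs), -0.21 to 0.019 and -0.18 to 0.044 (KRT7 with shPAX8-1 and shPAX8-2) and -0.050 to 0.13 (KRT8 with shPAX8-1) in OS-LM1 cells, and over -0.10 to 0.025 (KRT8), -0.051 to 0.19 (KRT10) and -0.019 to 0.044 (KRT18) between the lines with sgNTC18. Beyond calls lost that are given with their results, calls were gained in OS-LM1 cells for KRT8 between the constructs without shPAX8-2 replicate 2 (-0.34) and with shPAX8-2 without its replicate 2 (0.38) or 4 (0.33) or sgNTC18 replicate 1 (0.34). They were also gained for KRT10 between the constructs without shPAX8-1 replicate 2 (0.47) and KRT19 with shPAX8-1 without sgNTC18 replicate 2 (-0.26). Line differences between the constructs gained a call for KRT7 without 786-M1A shPAX8-2 replicate 1 (-2.11), KRT10 without 786-M1A shPAX8-1 replicate 1 (-0.83) or 2 (-0.83) or OS-LM1 shPAX8-1 replicate 3 (-0.84) and KRT81 without 786-M1A shPAX8-2 replicate 4 (-2.14), and that of shPAX8 for KRT7 without 786-M1A sgNTC18 replicate 4 (1.12) or shPAX8-2 replicate 1 (1.19).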

Other observations

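DSP, which encodes desmoplakin, the link between keratin filaments and desmosomes, was noticed among the anchoring genes after its values were seen. It was at 15.8 ± 1.37 CPM (SD, n = 4) with sgNTC18 in OS-LM1 cells and at 0.0613 ± 0.0682 and 0.0324 ± 0.0377 CPM with shPAX8-1 and shPAX8-2. In 786-M1A cells the groups had means of at most 0.087 CPM. PLEC, which encodes plectin, the linker of intermediate filaments to other cytoskeletal structures, was at 704 ± 144, 179.7 ± 73.5 and 372 ± 70.9 CPM with sgNTC18, shPAX8-1 and shPAX8-2 in 786-M1A cells and at 159 ± 14.4, 90.6 ± 12.2 and 85.3 ± 26.3 CPM in OS-LM1 cells. It too was chosen after its values were seen.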
